A study of Mus musculus with 4 samples.

Results

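The TRAJ segments are the joining segments of the T cell receptor alpha chain, and their use was read from every TRA contig in the receptor libraries of mouse thymocytes sorted as CD4+CCR7+, that is as maturing cells. The segments described are all those named as the J gene of such a contig, ordered by number, since a high number lies at the 5' end of the TRAJ cluster and a low number at the 3' end. They came to 43 of the 165 V and J segments named in TRA and TRB contigs, and ran from TRAJ58 to TRAJ2. The thymocytes were those of Cd4Cre Cgasfl/fl mice, called Cgas KO, and of Cd4Cre mice, called WT. Both groups thus carried the Cd4-driven Cre, which acts in T cells around the stage at which they hold both CD4 and CD8, and the Cgas KO mice carried floxed alleles of Cgas, the gene of a DNA sensor, besides. There was 1 gene expression library and 1 receptor library for each genotype. The labels give neither how many mice a library stands for, nor their age and strain, nor the floxed exons.

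The alpha chain is assembled in thymocytes by the RAG recombinase, which joins a TRAV to a TRAJ segment. The first joins use TRAV segments from the 3' end of their cluster and TRAJ segments from the 5' end of theirs. Later joins on the same allele cut out what lies between and move to TRAV further 5' and TRAJ further 3', until positive selection ends recombination. Both alleles recombine, so that a cell can carry 2 productive alpha chains. The position of a TRAJ segment is therefore commonly read as a record of how far an allele went.

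The RefSeq table of the GRCm38.p6 assembly listed 60 Traj genes on chromosome 14, in the order 61 to 1, and all 43 segments seen here matched one. The other 17 had no chain in these libraries, 9 of them annotated as pseudogenes. All contigs in the files were marked productive, full-length and high-confidence. Joins that were not productive could therefore not appear, and all shares below are of productive chains. Each segment adds 2 stretches to a chain, the end of CDR3, which is the loop that contacts the peptide, and the framework 4 strand behind it. The sequences below were read from the deposited contigs and belong to the segments on which the results turn. TRAJ58, TRAJ57 and TRAJ53 are 5' segments, TRAJ31 and TRAJ22 were among the most used, TRAJ35 and TRAJ28 were the least used, TRAJ33 and TRAJ18 are the joining segments of the invariant chains of MAIT and NKT cells, and TRAJ2 was the most 3' segment seen. Capitals mark the longest CDR3 end that at least 90% of the segment's chains shared, and lower case marks framework 4.
TRAJ58: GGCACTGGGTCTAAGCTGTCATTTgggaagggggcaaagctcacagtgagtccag
TRAJ57: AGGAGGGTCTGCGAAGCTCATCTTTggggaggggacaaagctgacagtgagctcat
TRAJ53: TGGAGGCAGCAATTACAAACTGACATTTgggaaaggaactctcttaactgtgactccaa
TRAJ35: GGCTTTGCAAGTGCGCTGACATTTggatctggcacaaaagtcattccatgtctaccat
TRAJ33: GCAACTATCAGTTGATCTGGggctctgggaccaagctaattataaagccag
TRAJ31: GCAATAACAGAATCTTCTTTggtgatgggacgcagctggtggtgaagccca
TRAJ28: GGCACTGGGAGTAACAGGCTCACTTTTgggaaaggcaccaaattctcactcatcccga
TRAJ22: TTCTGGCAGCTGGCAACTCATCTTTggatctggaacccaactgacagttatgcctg
TRAJ18: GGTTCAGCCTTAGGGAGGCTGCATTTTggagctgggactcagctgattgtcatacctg
TRAJ2: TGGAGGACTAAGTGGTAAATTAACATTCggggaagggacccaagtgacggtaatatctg

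The commonest framework 4 of a segment was the same in both libraries for 43 of 43 segments. It was 31 bases long for 42 segments and 34 bases long for TRAJ35. In all 43 it began with GGNNNNGG, read on the coding strand only, which is the start of the glycine motif that J segments share. The codon before it was ttt or ttc in 39 segments. The 4 exceptions were TRAJ38 and TRAJ33, which had tgg, and TRAJ44 and TRAJ7, which had ttg. The shared CDR3 end was 20 to 28 bases long.

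Kept cells had a median of 4433 UMIs in Cgas KO and 4918 UMIs in WT, over 14888 Cgas KO cells and 13069 WT cells. Cgas itself had 221 UMIs in Cgas KO cells, or 2.89 CPM (counts per 1e+06 UMIs; 95% interval 2.52 to 3.29), and 337 UMIs in WT cells, or 4.48 CPM (4.01 to 4.98), but the floxed exons are not known, so it is not known whether these UMIs come from the deleted part. Of the barcodes in the receptor libraries, 97.0% in Cgas KO and 97.9% in WT were kept cells of their genotype, and they held 14600 and 12772 distinct alpha chains. A barcode with exactly 1 chain is called single-alpha (10318 in Cgas KO, 9092 in WT) and one with exactly 2 is called dual-alpha (2141 and 1840, or 17.2% and 16.8% of barcodes with a chain). No barcode had more. In the kept cells Cd4 stood at 264 CPM in Cgas KO and 257 CPM in WT, and Ccr7 at 719 and 616 CPM. Of other cells, the summed markers of B cells stood at 5.0 and 5.38 CPM, of dendritic or myeloid cells (1 of 6 at 0 in both) at 164 and 174 CPM, of epithelium at 6.66 and 6.18 CPM and of erythroid cells at 11.6 and 0.571 CPM, and their part in the results was not tested. Nearly all of the dendritic or myeloid sum came from Cst3, at 92.8 and 93.9 CPM, and Cd74, at 66.7 and 73.8 CPM. H2-Aa, the next highest, stood at 3.95 and 4.74 CPM. Contigs had a median of 5 UMIs in both libraries, and 283 kept barcodes occurred in both genotypes. At least 2 beta chains, which a cell rarely carries, were found in 30.9% of Cgas KO and 29.0% of WT dual-alpha barcodes, against 7.01% and 6.95% of single-alpha barcodes.

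One feature set the Cgas KO library apart. In it, 597 combinations of alpha and beta chains stood in exactly 2 single-alpha barcodes each, which took up 11.8% of the single-alpha barcodes with a beta chain, and 65 combinations stood in 2 dual-alpha barcodes each. In WT 20 combinations stood in more than 1 single-alpha barcode (0.457% of barcodes) and 1 in more than 1 dual-alpha barcode. The 2 barcodes of a Cgas KO combination differed at a median of 12 of their bases. The repeated single-alpha barcodes had a median of 2988 UMIs, against 4568 UMIs for the other Cgas KO barcodes, and 27.8% of these combinations used the 5' section. The cause was not tested. The genotype results for sections, pairs, TRAV and the segments named in dual-alpha chains are therefore given also with 1 barcode kept per combination, a choice made after seeing the data.

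With 1 library per genotype there was no test between genotypes. Every interval below is an exact 95% interval that covers counting error only. It treats the chains as independent, which the 2 chains of a dual-alpha barcode are not, and it says nothing of the spread between mice.

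TRAJ use was uneven and followed nearly the same profile in both genotypes. Across the 43 segments the Cgas KO and WT shares of single-alpha barcodes had a Pearson correlation of 0.979, as a description of 1 library each. The 8 segments with the highest mean of the 2 libraries' shares held 34.0% of Cgas KO and 34.1% of WT barcodes, and the 8 with the lowest mean held 5.90% and 5.96%. TRAJ31 led with 5.94% in Cgas KO and 5.88% in WT. TRAJ22 had 5.30% and 4.47%, TRAJ23 had 4.89% and 4.47%, and TRAJ37 had 3.98% and 4.04%. Next by that mean were TRAJ27, TRAJ15, TRAJ12 and TRAJ40, all between 3.26% and 4.03%. Of these 8, 6 lie in the middle of the cluster and TRAJ15 and TRAJ12 lie in its 3' part.

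The least used segments were TRAJ35, with 25 of 10318 barcodes in Cgas KO (0.242%) and 28 of 9092 in WT (0.308%), and TRAJ28, with 0.426% in Cgas KO and 0.528% in WT. TRAJ2, TRAJ38, TRAJ47, TRAJ24, TRAJ11 and TRAJ5 followed, at 0.594% to 1.09%. Rare segments were thus scattered among common ones: TRAJ35 stands next to TRAJ34, which had 3.36% in Cgas KO and 3.42% in WT. The most 5' segment seen, TRAJ58, had 1.2% in Cgas KO and 1.21% in WT.

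**Figure D1:**
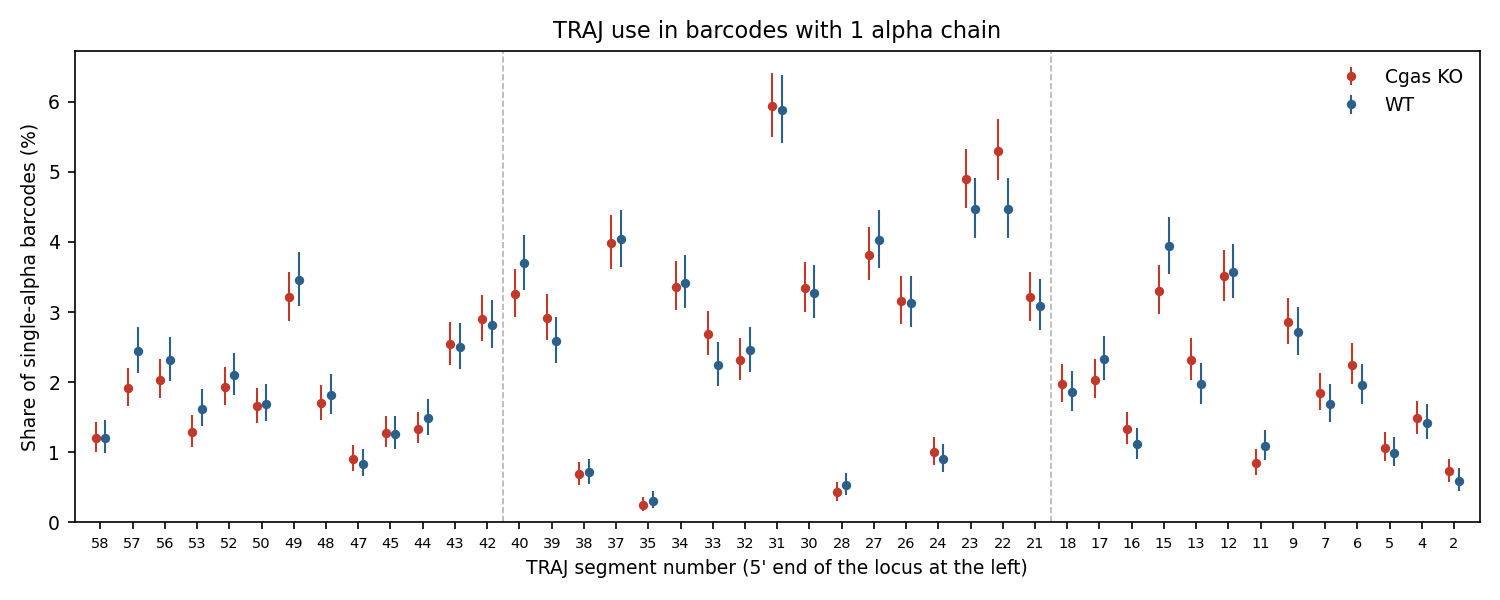
Share of single-alpha barcodes (%, y axis) that used each TRAJ segment (x axis, 5' to 3'), with exact 95% intervals, for Cgas KO (red, 10318 barcodes) and WT (blue, 9092 barcodes); dashed lines bound the sections. TRAJ31 stands highest and TRAJ35 lowest in both, and most pairs of intervals overlap.

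Few segments differed between genotypes in single-alpha barcodes. At least a 1.2-fold difference in share was found for 6 of 43 segments (14%), 1 higher (2.33%) and 5 lower (11.6%) in Cgas KO. The same rule called 19 of 110 TRAV, TRBV and TRBJ segments (17.3%), with 10% higher and 7.27% lower, and 15 of 76 TRAV segments (19.7%). The TRAJ share was thus near that background. Median chains over both libraries were 187.5 per TRAV, 420 per TRAJ, 935.5 per TRBV and 1815 per TRBJ segment. With fewer chains, counting error takes more segments past 1.2-fold. TRAJ57 had 1.92% of Cgas KO and 2.44% of WT barcodes, a ratio of 0.786 (0.646 to 0.956). The intervals of the other 5 included 1: ratios were 0.797 for TRAJ53, 0.787 for TRAJ35, 0.808 for TRAJ28, 0.774 for TRAJ11 and 1.22 for TRAJ2. The intervals left out 1 also for a pair of segments short of 1.2-fold, named after their values were seen, TRAJ22 at 1.19 (1.04 to 1.35) and TRAJ15 at 0.839 (0.722 to 0.976). With all chains of single-alpha and dual-alpha barcodes, 3 segments passed, and none passed at 1.5-fold.

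Taken by region, the cluster was divided at fixed numbers into a 5' section (61 to 41, 13 segments seen), a middle section (40 to 21, 17 segments) and a 3' section (20 to 1, 13 segments). Single-alpha barcodes used the 5' section in 23.9% of Cgas KO and 25.5% of WT cases, a ratio of 0.936 (0.884 to 0.991). With 1 barcode per chain combination the shares were 23.7% and 25.6%, a ratio of 0.925 (0.873 to 0.980). The middle section had 50.6% and 49.2%, and the 3' section 25.5% and 25.2%, with a ratio of 1.01 (0.957 to 1.07) for the last. The mean segment number was 29.7 in Cgas KO and 30.3 in WT. Across the 43 segments, the Cgas KO over WT ratio fell with segment number (Spearman -0.45, a description; the ratios share both libraries' totals).

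Dual-alpha barcodes differed more between genotypes, at the 5' end. They used the 5' section in 853 of 4282 Cgas KO chains, or 19.9% (18.7 to 21.1), and in 953 of 3680 WT chains, or 25.9% (24.5 to 27.3), a ratio of 0.769 (0.701 to 0.845). The middle section had 53.1% in Cgas KO and 49.6% in WT, and the 3' section 27.0% and 24.5%, with a ratio of 1.10 (1.01 to 1.2). With 1 barcode per chain combination the 5' section had 19.8% and 25.9%, and the 3' section ratio was 1.10 (1.01 to 1.2). Without barcodes of at least 2 beta chains the 5' section had 20.2% and 25.5%, while the 3' section ratio was 1.08 (0.969 to 1.19), an interval that included 1.

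The lower use was uneven within the 5' section. In dual-alpha barcodes 12 of its 13 segments were below 1 in the Cgas KO over WT ratio, against 20 of all 43 segments. TRAJ45 and TRAJ43 stood near 1, at 0.969 and 0.982, and TRAJ42, the most 3' of the section, stood at 1.01. The intervals of TRAJ56, TRAJ50, TRAJ48, TRAJ47, TRAJ45, TRAJ44 and TRAJ43 included 1. TRAJ58 had 16 of 4282 chains in Cgas KO (0.374%) and 33 of 3680 in WT (0.897%), a ratio of 0.417 (0.214 to 0.779). TRAJ53 had 0.887% in Cgas KO and 1.79% in WT, a ratio of 0.495 (0.323 to 0.749). TRAJ57 had 1.28% in Cgas KO and 2.15% in WT, a ratio of 0.598 (0.416 to 0.855). Further 3', TRAJ31 had 7.40% in Cgas KO and 5.68% in WT, a ratio of 1.30 (1.09 to 1.56), and TRAJ17 had 3.11% and 1.96%, a ratio of 1.59 (1.18 to 2.15). Of the 13 segments of the 3' section 4 were below 1. TRAJ4 was the lowest of them, with 1.24% in Cgas KO and 1.85% in WT, a ratio of 0.670 (0.459 to 0.974). With 1 barcode per chain combination the ratios were 0.403 for TRAJ58, 0.483 for TRAJ53, 0.606 for TRAJ57, 1.33 for TRAJ31, 1.53 for TRAJ17 and 0.690 (0.473 to 1.003) for TRAJ4, the last with an interval that included 1. Among the 42 segments with at least 50 chains, 23 passed 1.2-fold (54.8%), 10 higher (23.8%) and 13 lower (31%). TRAJ58 fell short of that minimum and is not among them. Of 60 TRAV segments in the same chains 16.7% were higher and 23.3% lower. These chains are fewer than those of single-alpha barcodes, and the ratios scatter more.

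**Figure D2:**
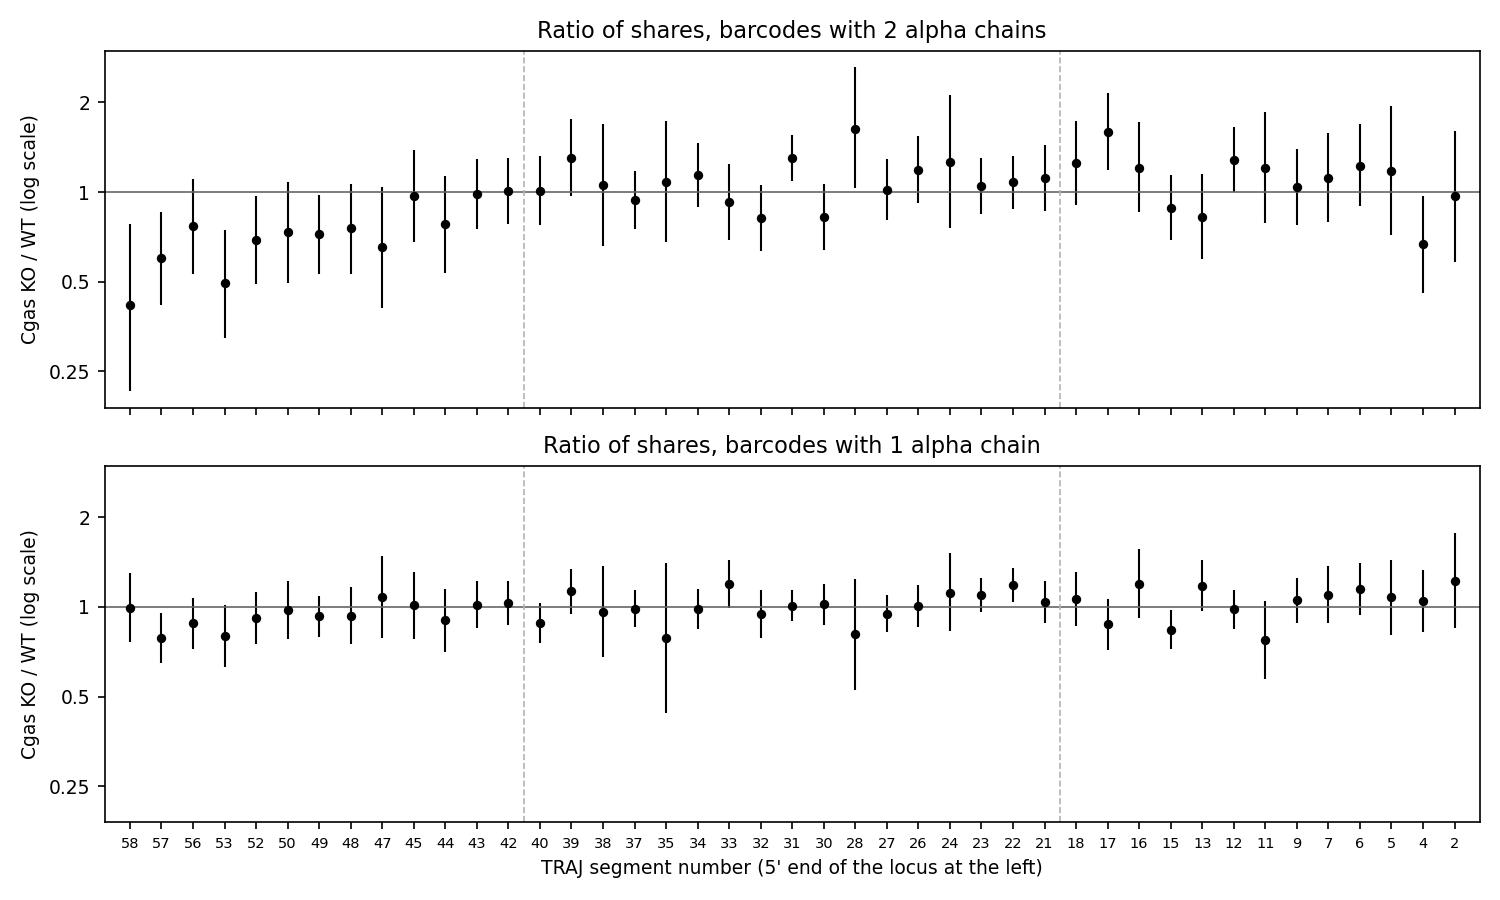
Ratio of a TRAJ segment's share, Cgas KO over WT (log-scaled y axis), with exact 95% intervals, along the cluster from 5' to 3' (x axis), in dual-alpha barcodes (top) and single-alpha barcodes (bottom). The ratio is below 1 in 12 of the 13 segments of the 5' section in dual-alpha barcodes and in 9 of 13 in single-alpha barcodes. Over all 43 segments it is below 1 in 20 and 21.

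Set against single-alpha barcodes of the same library, dual-alpha chains of Cgas KO used the 5' section less, at a ratio of 0.833 (0.770 to 0.901), while in WT the ratio was 1.01 (0.939 to 1.09). For the 3' section the ratios were 1.05 (0.984 to 1.13) in Cgas KO and 0.970 (0.897 to 1.05) in WT. The difference between the genotypes' ratios was not tested. The lower 5' share in Cgas KO held for both chains of a barcode. In the 1880 Cgas KO and 1638 WT barcodes whose chains differed in UMIs, the chain with fewer UMIs used the 5' section in 20.5% of Cgas KO and 27.5% of WT cases, and the chain with more UMIs in 18.7% of Cgas KO and 23.6% of WT cases.

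Of the 2 rarest segments, TRAJ35 stood out in both genotypes by where its chains were found. TRAJ28 did so clearly in Cgas KO, while in WT it lay just above the segments other than TRAJ35. Dual-alpha barcodes supplied 29.3% of all alpha chains in Cgas KO and 28.8% in WT, but they supplied 44 of the 69 TRAJ35 chains in Cgas KO, or 63.8% (51.3 to 75), and 35 of 63 in WT, or 55.6% (42.5 to 68.1). For TRAJ28 they supplied 57 of 101 chains in Cgas KO, or 56.4% (46.2 to 66.3), and 30 of 78 in WT, or 38.5% (27.7 to 50.2). The other 41 segments lay between 11.4% and 39.2% in Cgas KO and between 23.1% and 37.7% in WT. The share of TRAJ35 among dual-alpha chains was 4.24 times its share among single-alpha barcodes in Cgas KO (2.54 to 7.23) and 3.09 times in WT (1.83 to 5.27). For TRAJ28 it was 3.12 times in Cgas KO (2.07 to 4.74) and 1.54 times in WT (0.945 to 2.49). These segments were described after their values were seen.

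The excess of TRAJ35 was about as large when barcodes with several beta chains or repeated barcodes were left out. Without barcodes of at least 2 beta chains its dual-alpha over single-alpha ratio was 4.93 in Cgas KO and 3.24 in WT, and with 1 barcode per chain combination it was 4.68 and 3.08. For TRAJ28 the ratio without barcodes of at least 2 beta chains was 3.64 in Cgas KO and 2.05 in WT. In dual-alpha barcodes whose chains differed in UMIs, TRAJ35 was the chain with fewer UMIs in 16 of 38 Cgas KO cases and 21 of 35 WT cases, and its chains had medians of 5 UMIs in Cgas KO and 5.5 UMIs in WT single-alpha barcodes. Over all segments, 9 of 43 in Cgas KO (20.9%) and 9 of 43 in WT (20.9%) were at least 1.2-fold higher in dual-alpha than in single-alpha barcodes. At least 1.2-fold lower were 8 of 43 (18.6%) in Cgas KO and 7 of 43 (16.3%) in WT. For TRAV segments the percentages were 16.2% higher and 27% lower in Cgas KO, and 22.5% higher and 25.4% lower in WT. The TRAJ counts are near that background, but TRAV segments hold fewer chains each, so counting error takes more of them past 1.2-fold.

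**Figure D3:**
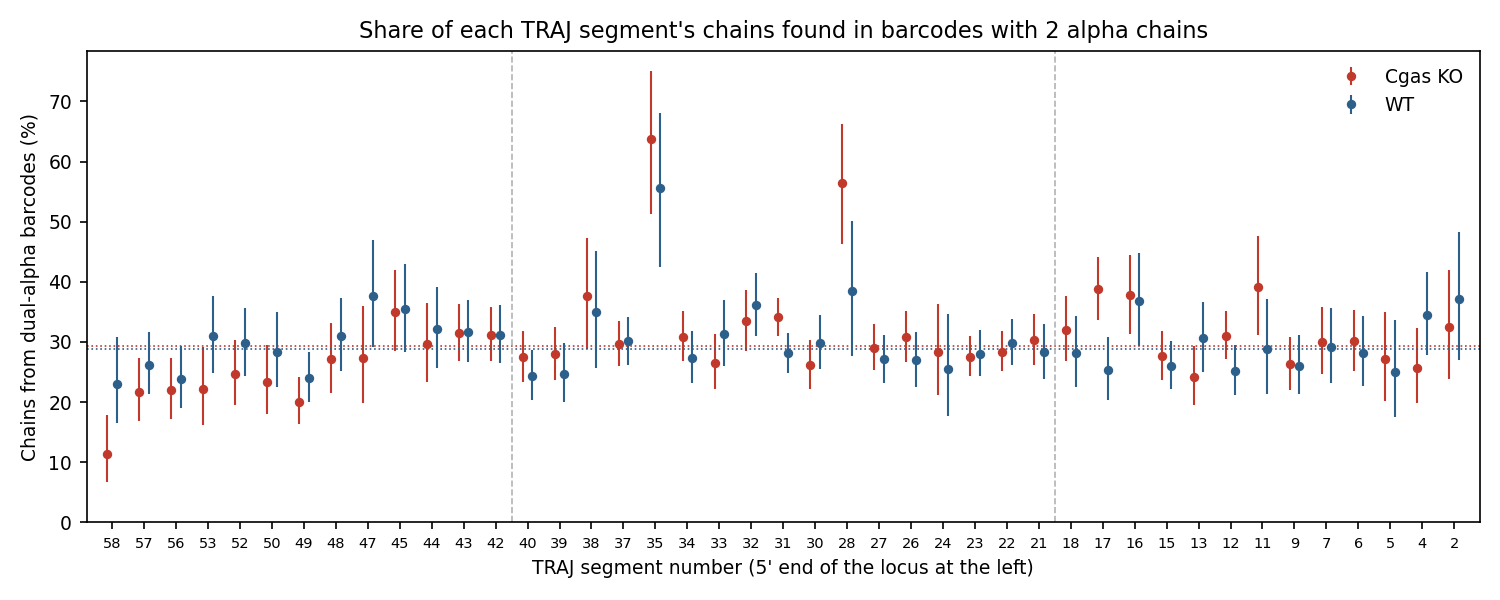
Share of each TRAJ segment's chains that came from dual-alpha barcodes (%, y axis) along the cluster (x axis, 5' to 3'), with exact 95% intervals, for Cgas KO (red) and WT (blue); dotted lines give the share over all segments, 29.3% and 28.8%. TRAJ35 stands highest in both genotypes, at 63.8% and 55.6%.

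The 2 chains of a barcode tended to come from nearby TRAJ segments, as is known of alleles that recombine in step. Their segment numbers had a Spearman correlation of 0.48 over 2141 Cgas KO barcodes and 0.51 over 1840 WT barcodes, a description with chains ordered by UMIs. The median distance was 8 segment numbers in both. A distance of at most 5 was found in 35.3% of Cgas KO (33.3 to 37.4) and 36.2% of WT barcodes (34.0 to 38.4). Both chains used the same segment in 4.30% of Cgas KO and 5.65% of WT barcodes, and a distance of 30 or more was found in 4.72% and 5.22%.

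The pairing was closer in barcodes with no more than 1 beta chain. There the Spearman correlation was 0.63 over 1479 Cgas KO barcodes and 0.69 over 1306 WT barcodes. Distances above 30 made up 1.89% of Cgas KO (1.26 to 2.72) and 1.38% of WT barcodes (0.819 to 2.17), against 4.11% and 4.78% over all dual-alpha barcodes. Over all dual-alpha barcodes, a 5' section chain had a 5' section partner in 44.3% of Cgas KO and 53.7% of WT cases. A 3' section chain had one in 7.11% and 9.21%. The quotient of these shares was 6.24 (4.90 to 8.02) in Cgas KO and 5.83 (4.62 to 7.45) in WT, with intervals that are too narrow because each pair enters from both chains. Without barcodes of at least 2 beta chains it was 14.9 (10.1 to 22.5) in Cgas KO and 19.1 (12.5 to 30.9) in WT.

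Pairs with both chains in the 5' section differed most between the genotypes. They made up 189 of 2141 Cgas KO barcodes, or 8.83% (7.66 to 10.1), and 256 of 1840 WT barcodes, or 13.9% (12.4 to 15.6), a ratio of 0.634 (0.523 to 0.769). With 1 barcode per chain combination the ratio was 0.633, and without barcodes of at least 2 beta chains the shares were 10.9% and 16.3%. Pairs with 1 chain in the 5' section and the other in the middle section had 18.4% in Cgas KO and 19.5% in WT. Pairs with both chains in the middle section had 32.0% and 29.3%, pairs of the middle and the 3' section 23.9% and 21.1%, and pairs with both in the 3' section 13.1% and 11.7%. Pairs that spanned the 5' and the 3' section were the least frequent, at 3.83% in Cgas KO and 4.51% in WT.

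**Figure D4:**
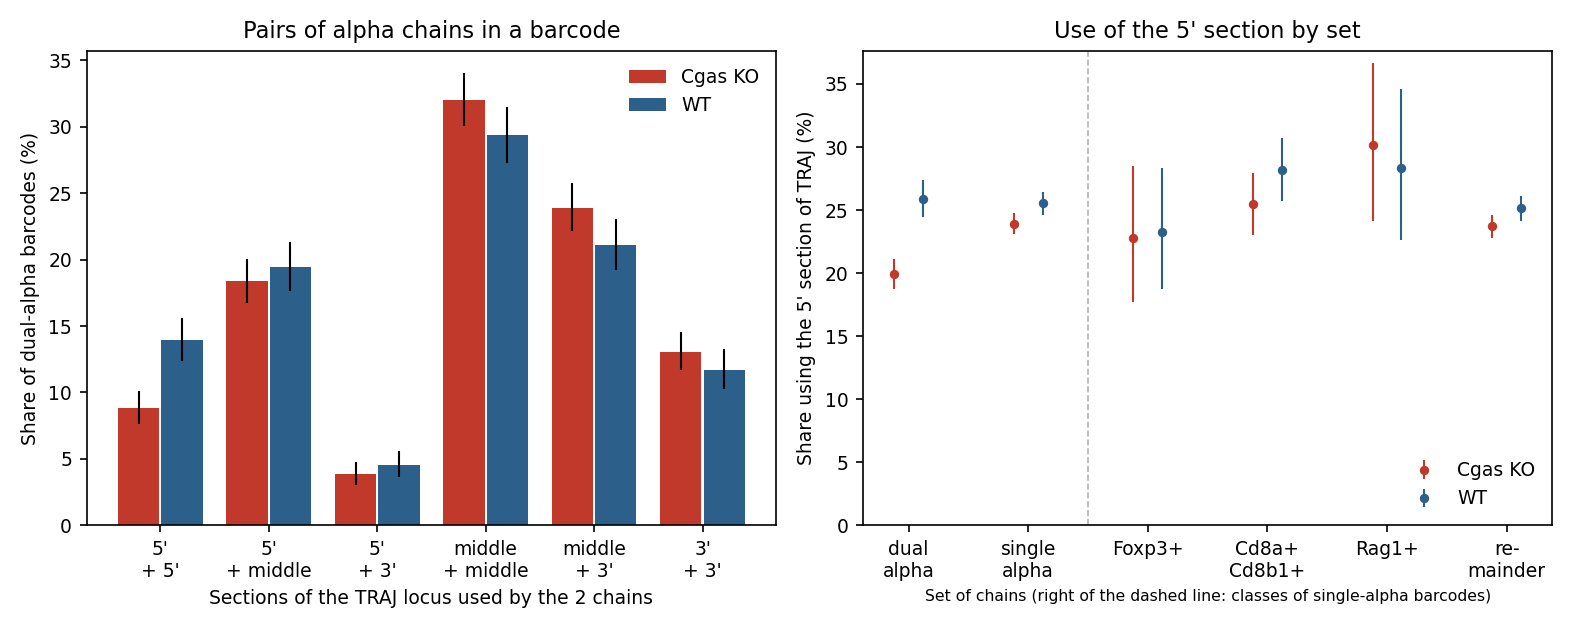
Left: share of dual-alpha barcodes (%) by the sections of the TRAJ cluster that the 2 chains used. Right: share of chains that used the 5' section (%) in dual-alpha and single-alpha barcodes and in 4 classes of single-alpha barcodes. Bars and points carry exact 95% intervals, with Cgas KO in red and WT in blue; pairs of 5' section chains stand at 8.83% in Cgas KO and 13.9% in WT.

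The TRAV partner changed along the TRAJ cluster in both genotypes, though not evenly. The TRAV genes of the RefSeq table were divided by order into 5', middle and 3' runs of nearly equal size. Single-alpha chains of the 5' section of TRAJ carried a 3' TRAV in 75.4% of Cgas KO (73.6 to 77.1) and 76.0% of WT cases (74.2 to 77.7), and those of the 3' section in 18.0% (16.6 to 19.5) and 18.7% (17.2 to 20.4). For 5' TRAV the order was reversed, with 15.9% in Cgas KO and 15.2% in WT at the 5' section of TRAJ and 52.5% and 52.9% at the 3' section. The change lay mainly between the 3' run and the rest. Mean TRAJ numbers were 23.7 in Cgas KO and 24.0 in WT for 5' TRAV and 24.2 and 24.8 for middle TRAV. For 3' TRAV they were 36.6 and 37.1. Per chain, segment number and TRAV order had a Spearman correlation of 0.46 over 10318 Cgas KO chains and 0.48 over 9092 WT chains, as a description. Copies of TRAV genes in the duplicated part of the cluster are nearly identical, so the assignment of a chain to one copy is uncertain.

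Segment by segment, the share of 3' TRAV was highest at TRAJ57, with 89.9% in Cgas KO and 86.9% in WT. At TRAJ31 it was 48.1% and 49.0%. It was lowest at TRAJ5, with 7.27% and 8.89%, while TRAJ4 beside it had 25.5% and 11.6%. Among TRAV genes at the 3' end of their cluster, TRAV21-DV12 had a median TRAJ number of 53 in Cgas KO and 54.5 in WT, and 81.9% of its 105 Cgas KO chains and 88.9% of its 108 WT chains used the 5' section. TRAV19 had 81.1% and 80.4%. TRAV17 had 56.2% of 89 Cgas KO chains and 78.3% of 92 WT chains in the 5' section. At the other end, TRAV5-1 had 4.21% of 95 Cgas KO chains and 6.35% of 63 WT chains there.

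The TRAV17 to TRAV21 families, whose numbers mark the 3' end of the cluster, made up 8.27% of 5' section chains in Cgas KO (204 of 2466) and 11% in WT (256 of 2322), but 4 of 2636 3' section chains in Cgas KO (0.152%) and 5 of 2294 in WT (0.218%). The quotient of these shares was 54.5 (21 to 202) in Cgas KO and 50.6 (21.4 to 157) in WT. Between the genotypes, 3' TRAV were used in 43.1% of Cgas KO and 47.5% of WT dual-alpha chains, a ratio of 0.907 (0.849 to 0.969), and in 45.4% and 46.9% of single-alpha chains, a ratio of 0.968 (0.928 to 1.01). These ratios became 0.909 (0.850 to 0.971) and 0.961 (0.921 to 1.002) with 1 barcode per chain combination.

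**Figure D5:**
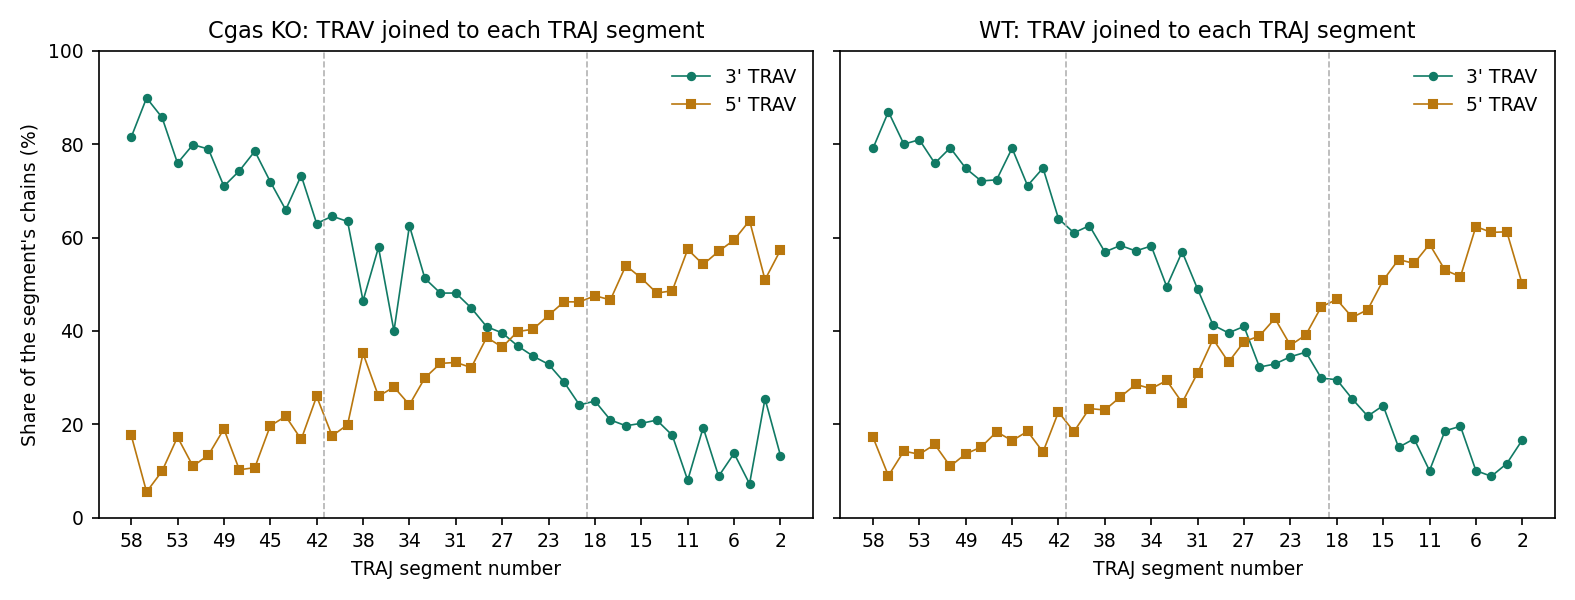
Share of each TRAJ segment's single-alpha chains (%, y axis) that carried a TRAV from the 3' run (green circles) or the 5' run (orange squares) of the TRAV cluster, along the TRAJ cluster (x axis, 5' to 3'), for Cgas KO (left) and WT (right). The share of 3' TRAV is 89.9% and 86.9% at TRAJ57 and 7.27% and 8.89% at TRAJ5.

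The gene expression libraries, which share their barcodes with the receptor libraries, gave the same order. Both read the alpha transcripts of the same cells, so this is not independent support. The protocol names a 3' kit, yet single-alpha barcodes held 50485 Trav and 8789 Trac UMIs in Cgas KO and 48108 and 8248 in WT, so more UMIs fell on the V genes, at the 5' side of the transcript, than on the constant gene at its 3' side. Of the Trav UMIs, 64.0% in Cgas KO and 65.6% in WT belonged to the TRAV of the barcode's own contig. UMIs were summed over 5' section and over 3' section barcodes, a sum in which more expressing cells and more RNA per cell cannot be told apart. Trav21-dv12 stood at 44.2 CPM in 5' section and 1.23 CPM in 3' section barcodes of Cgas KO, and at 47.3 and 1.36 CPM in WT, ratios of 36.1 (21.7 to 64.9) and 34.8 (21.3 to 61.3). Trav1, at the 5' end of its cluster, stood at 0.243 and 17.8 CPM in Cgas KO and at 0.454 and 15.5 CPM in WT. The ratio rose with TRAV order, with a Spearman correlation of 0.85 over 63 genes in Cgas KO and 0.87 over 61 in WT. Traj49, a joining segment counted as a gene of its own, stood at 10.1 CPM in 5' section and 0.735 CPM in 3' section barcodes of Cgas KO, and at 10.2 and 0.934 CPM in WT. Only 26 of its 159 UMIs in Cgas KO and 28 of 167 in WT lay in barcodes whose contig used TRAJ49.

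CDR3 length varied with the segment. Its mean was 41.6 ± 4.07 bases (SD over 2466 chains) for the 5' section, 39.97 ± 3.64 for the middle section and 40.4 ± 3.58 for the 3' section in Cgas KO. In WT the means were 41.6 ± 4.03, 39.95 ± 3.82 and 40.5 ± 3.58 bases. The invariant chains were rare. TRAV11 with TRAJ18, the alpha chain of invariant NKT cells, was found in 11 of 300 TRAJ18 chains in Cgas KO, or 3.67% (1.84 to 6.47), and in 7 of 235 in WT, or 2.98% (1.21 to 6.04). TRAV1 with TRAJ33, the alpha chain of MAIT cells, was found in 3 of 377 TRAJ33 chains in Cgas KO and 4 of 297 in WT. TRAJ18 had 1.98% and TRAJ33 2.68% of single-alpha barcodes in Cgas KO, against 1.86% and 2.24% in WT.

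For the next comparison, 3 classes of single-alpha barcodes were taken from the expression matrices. Foxp3+ barcodes had at least 1 UMI of the regulatory T cell factor Foxp3 (246 in Cgas KO, 318 in WT). Cd8a+Cd8b1+ barcodes had at least 1 UMI of each CD8 chain gene (1242 and 1279). Rag1+ barcodes had at least 1 UMI of Rag1, a subunit of the recombinase (219 and 233). Classes could overlap, and the remainder met none of these rules (8790 and 7465). Genes outside the rules served to check the names. Il2ra stood at 202 CPM in Cgas KO and 206 CPM in WT Foxp3+ barcodes, against 8.16 and 11.8 CPM in the remainder. Dntt, the enzyme that adds bases at the joins, stood at 619 and 647 CPM in Rag1+ barcodes, against 14.0 and 15.6 CPM. Cd4 stood at 119 and 121 CPM in Cd8a+Cd8b1+ barcodes, against 279 CPM in both remainders, although all cells had been sorted as CD4 positive. Of the Rag1+ barcodes, 75.3% in Cgas KO and 79.0% in WT were also Cd8a+Cd8b1+, against 4.88% and 5.03% of Foxp3+ barcodes, at medians of 3629 and 3997 UMIs in Rag1+ and 4459 and 4876 UMIs in Foxp3+ barcodes. At least 2 beta chains were found in 25.6% and 28.8% of Rag1+ barcodes, against 6.23% and 6.10% of the remainder. In barcodes of at least 20 and fewer than 200 UMIs, which hold free RNA, Rag1 stood at 40.7 CPM in Cgas KO and 45.4 CPM in WT, Cd8a at 180 and 183 CPM, Cd8b1 at 185 and 172 CPM and Foxp3 at 11.7 and 14.1 CPM. Over all kept cells Rag1 stood at 19.4 CPM in Cgas KO and 23.4 CPM in WT, below its free RNA values. In the same cells Cd8a stood at 173 and 187 CPM, Cd8b1 at 191 and 196 CPM and Foxp3 at 8.49 and 13.1 CPM. Thus 1 UMI of a class gene can be free RNA.

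Rag1+ barcodes used the 5' section in 30.1% (24.1 to 36.7) of Cgas KO and 28.3% (22.6 to 34.6) of WT cases, against 23.7% and 25.1% in the remainder. The ratios were 1.27 (0.979 to 1.62) in Cgas KO and 1.13 (0.868 to 1.44) in WT, with intervals that included 1. With at least 2 Rag1 UMIs they were 1.46 (1.03 to 2.01) and 1.05 (0.741 to 1.45). The Cgas KO value leaned on TRAJ58, named after its value was seen. It had 12 of 219 Rag1+ barcodes, where 2.29 were expected from the remainder, a ratio of 5.24 (2.61 to 9.59). In WT TRAJ58 had 3 of 233, a ratio of 1.07 (0.216 to 3.22). Other 5' section segments lay on both sides of 1, such as TRAJ45 at 3.05 and TRAJ57 at 0.221 in Cgas KO. For the 3' section Rag1+ barcodes had 22.4% in Cgas KO and 28.3% in WT, against 26.0% and 25.5% in the remainder, ratios of 0.860 (0.634 to 1.14) and 1.11 (0.855 to 1.42).

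Cd8a+Cd8b1+ barcodes used the 3' section less than the remainder in Cgas KO, with 22.5% (20.2 to 24.9) against 26.0%, a ratio of 0.863 (0.759 to 0.978). In WT they had 22.9% (20.6 to 25.3) against 25.5%, a ratio of 0.898 (0.791 to 1.02). For the 5' section they had 25.4% in Cgas KO and 28.1% in WT, against 23.7% and 25.1%, ratios of 1.07 (0.95 to 1.21) and 1.12 (0.998 to 1.25). Its segments did not move together. In Cgas KO, TRAJ45 had 39 chains where 13.0 were expected from the remainder, and TRAJ43 had 18 where 32.9 were expected. In WT, TRAJ49 had 78 where 38.9 were expected, and TRAJ42 had 27 where 37.4 were expected. With at least 2 UMIs of each CD8 gene, the 3' section ratios were 0.813 (0.699 to 0.942) in Cgas KO and 0.857 (0.740 to 0.989) in WT, and the 5' section ratios were 1.15 (1.01 to 1.32) and 1.15 (1.01 to 1.30).

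Foxp3+ barcodes had 22.8% (17.7 to 28.5) in the 5' section in Cgas KO and 23.3% (18.7 to 28.3) in WT, against 23.7% and 25.1% in the remainder. The ratios were 0.960 (0.723 to 1.25) and 0.926 (0.724 to 1.17). For the 3' section they had 24.0% in Cgas KO and 28.6% in WT, with ratios of 0.921 (0.699 to 1.19) and 1.12 (0.898 to 1.38). All 4 intervals included 1. With each cell thinned to 2000 UMIs the 3' section ratio in WT was 1.35 (1.03 to 1.73), an interval that left out 1, and in Cgas KO it was 0.966 (0.682 to 1.33). With at least 2 Foxp3 UMIs the 5' section ratios lay above 1, at 1.07 (0.667 to 1.62) in Cgas KO and 1.05 (0.730 to 1.45) in WT. Between genotypes, the 5' section ratio in single-alpha barcodes was 0.978 (0.679 to 1.40) for Foxp3+, 0.904 (0.775 to 1.05) for Cd8a+Cd8b1+, 1.06 (0.745 to 1.52) for Rag1+ and 0.943 (0.886 to 1.005) for the remainder. With 1 barcode per chain combination the last was 0.931 (0.873 to 0.993), an interval that left out 1.

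By the naming rule single segments were set against the remainder in Cd8a+Cd8b1+ barcodes only, where 28 segments in Cgas KO and 31 in WT had at least 20 chains expected. Of these, 5 were at least 1.2-fold higher (17.9%) and 12 lower (42.9%) in Cgas KO, and 6 higher (19.4%) and 11 lower (35.5%) in WT. TRAV segments under the same rule gave 23.1% and 50% in Cgas KO and 29.6% and 51.9% in WT, so the TRAJ counts did not exceed that background. TRAJ26 had 4.51% of Cd8a+Cd8b1+ barcodes and 2.97% of the remainder in Cgas KO, a ratio of 1.52 (1.12 to 2.03), and 4.77% and 2.85% in WT, a ratio of 1.67 (1.24 to 2.23). TRAJ30 had 4.67% and 3.16% in Cgas KO, a ratio of 1.48 (1.09 to 1.97), and 4.61% and 3.08% in WT, a ratio of 1.5 (1.11 to 2.0). Both were among the 4 highest of these segments in both libraries. Of the segments with fewer chains expected, named after their values were seen, TRAJ45 stood higher, with 3.14% of Cd8a+Cd8b1+ barcodes and 1.05% of the remainder in Cgas KO, a ratio of 3.0 (2.01 to 4.41), and 2.11% and 1.14% in WT, a ratio of 1.85 (1.16 to 2.89). TRAJ47 had ratios of 1.65 (0.911 to 2.82) in Cgas KO and 1.98 (1.11 to 3.38) in WT. TRAJ58 lay on opposite sides of 1, at 2.15 (1.36 to 3.32) in Cgas KO and 0.649 (0.301 to 1.25) in WT.

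TRAJ49 differed in size between the libraries. It had 3.70% of Cd8a+Cd8b1+ barcodes and 3.12% of the remainder in Cgas KO, a ratio of 1.19 (0.850 to 1.63), and 6.10% and 3.04% in WT, a ratio of 2.01 (1.53 to 2.60). The difference between these ratios was not tested. The other high segments were TRAJ7 at 1.68 and TRAJ33 at 1.35 in Cgas KO, and TRAJ48 at 1.29 in WT. TRAJ6 was among the 4 lowest in both, with ratios of 0.568 (0.324 to 0.931) in Cgas KO and 0.606 (0.338 to 1.02) in WT. The other low segments were TRAJ43 at 0.547, TRAJ57 at 0.583 and TRAJ12 at 0.610 in Cgas KO, and TRAJ37 at 0.594, TRAJ31 at 0.599 and TRAJ15 at 0.621 in WT.

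The lower use of the 5' section in Cgas KO dual-alpha chains was seen in the remainder, with 19.9% (18.6 to 21.3) against 25.6% (24.1 to 27.2) in WT, a ratio of 0.778 (0.701 to 0.864). It was seen in Cd8a+Cd8b1+ barcodes too, with 19.0% (16.1 to 22.3) in Cgas KO and 28.7% (25.1 to 32.5) in WT, a ratio of 0.664 (0.521 to 0.843). Rag1+ barcodes had 23 of 106 chains in Cgas KO (21.7%) and 29 of 76 in WT (38.2%), a ratio of 0.569 (0.314 to 1.02). Foxp3+ barcodes had 21 of 110 chains in Cgas KO (19.1%) and 29 of 146 in WT (19.9%), a ratio of 0.961 (0.521 to 1.74). The ratios with 1 barcode per chain combination were 0.774 for the remainder, 0.676 for Cd8a+Cd8b1+, 0.569 for Rag1+ and 0.932 for Foxp3+ barcodes.

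Genes of alpha chain rearrangement were compared between single-alpha barcodes of the 5' section and of the 3' section. The list held 24 genes, among them the recombinase (Rag1, Rag2), Dntt, end-joining factors and cohesin with Ctcf, which fold the locus. In Cgas KO 5 members were at least 1.2-fold higher and 0 lower in 5' section barcodes, where 9.81% of all genes with at least 20 UMIs were higher and 10.7% lower. In WT 1 was higher and 0 lower, where 10.1% of genes were higher and 10.9% lower. With at least 100 UMIs the counts were 3 in Cgas KO, where 4.72% of genes were higher, and 0 in WT, where 5.3% were. The median log2 ratio of the list was 0.03 in Cgas KO and -0.00 in WT, and that of all other genes -0.01 and -0.00. These are values of 1 library each, with no test.

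Rag1 had 156 UMIs in 5' section and 90 in 3' section barcodes of Cgas KO (12.6 and 7.35 CPM), a ratio of 1.72 (1.32 to 2.25), and 184 and 160 UMIs in WT (13.9 and 13.6 CPM), a ratio of 1.03 (0.826 to 1.28). Dntt had 43.0 and 31 CPM in Cgas KO, a ratio of 1.39 (1.22 to 1.59), and 42.0 and 36.1 CPM in WT, a ratio of 1.16 (1.02 to 1.32). Rag2 and Ptcra, also past 1.2-fold in Cgas KO, had fewer than 100 UMIs and are named after their values were seen. Rag2 had 52 and 24 UMIs there and 48 and 37 in WT. Ptcra, the surrogate alpha chain of earlier thymocytes, had 37 and 6 UMIs in Cgas KO and 21 and 10 in WT, where it was the only member past 1.2-fold. In free RNA, Rag1 stood at 40.7 CPM in Cgas KO and 45.4 CPM in WT, and Dntt at 64.0 and 72.4 CPM. Rag2 stood there at 5.49 and 7.20 CPM, and Ptcra at 3.12 and 2.72 CPM. All these values exceeded those of either section in the same library. The part of free RNA in the ratios was not tested.

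The other members named here differed less. Hmgb2, a cofactor of RAG cleavage that is also high in dividing cells, had ratios of 1.03 (0.99 to 1.07) in Cgas KO and 1.18 (1.13 to 1.23) in WT. Ctcf had 0.911 (0.856 to 0.969) in Cgas KO and 0.984 (0.923 to 1.05) in WT. Bcl2l1, a survival gene, had 0.866 (0.759 to 0.988) and 0.947 (0.830 to 1.08). The end-joining genes Lig4, Xrcc6 and Xrcc5 had 1.15, 1.02 and 0.896 in Cgas KO and 0.995, 1.12 and 0.879 in WT, each with an interval that included 1. Total UMIs per cell fell along the cluster in both libraries, with medians of 4616, 4384 and 4162 UMIs for the 5', middle and 3' section in Cgas KO and of 5168, 4866 and 4554 UMIs in WT. Its part in these ratios was not tested.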

How the data were processed

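Expression was measured as UMI counts per gene and barcode, deposited by the authors as unfiltered matrices, and alpha and beta chains as assembled contigs with UMI and read counts. Cell Ranger is given as 8.0.1 per the file headers but as 7.0 per the submitters' processing notes, which list mm10 and also Seurat 5.1.0. This conflict could not be resolved, so no coordinates are printed, and RefSeq (GRCm38.p6) served for names and order only. The labels' protocols name a 3' kit for expression and a TCR kit.

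A barcode was kept as a cell where it held at least 1637 UMIs in Cgas KO or 1850 in WT, which is 10% of the UMIs at the 99th percentile among the highest barcodes, with at least 500 genes and at most 10% mitochondrial UMIs. The matrices held 87310091 UMIs in Cgas KO and 84763106 in WT. Chains that repeated within a barcode counted once. Doublets were not removed; barcodes with at least 2 beta chains were left out as an alternative. Shares have Clopper-Pearson intervals, ratios of shares conditional Poisson intervals and Cgas an exact Poisson interval, all at 95%, for counting error only. Summed counts were divided by the total of their cells to give CPM. The functions were tested on simulated data. The work used scipy 1.17.1, numpy 2.4.6, pandas 2.3.3 and matplotlib 3.10.9 under Python 3.11.15.

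Segments named with values were the 8 most and 8 least used by the mean of both libraries' shares, the most 5' and most 3', those past 1.2-fold between genotypes with at least 50 chains, TRAJ18 and TRAJ33, and, in a class, the 4 highest and 4 lowest ratios among segments with 20 chains expected. Of the rearrangement genes, up to 8 farthest from 1 with at least 100 UMIs were named, plus Rag1, Dntt and Ctcf; 1 further member that the counts include is not reported here. Segments named for other reasons were chosen after their values were seen. The members and lists were chosen with earlier results of these data known.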

Additional observations from a re-analysis of the deposited data

Results flagged for a closer look

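The use of the 5' section in dual-alpha relative to single-alpha barcodes lay on opposite sides of 1 in the genotypes, at 0.833 in Cgas KO and 1.01 in WT. So did the use of the 3' section, at 1.05 in Cgas KO and 0.970 in WT. For the 3' section relative to the remainder, Foxp3+ barcodes stood at 0.921 in Cgas KO and 1.12 in WT, and Rag1+ barcodes at 0.860 in Cgas KO and 1.11 in WT. None of these differences between genotypes was tested, since each genotype had 1 library, and the intervals included 1 in all but the first Cgas KO value.

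Alpha chains were also found in receptor barcodes that were no kept cells, 248 in Cgas KO and 127 in WT. They used the 5' section in 17.7% of Cgas KO and 18.1% of WT cases, and the 3' section in 37.1% and 38.6%, against 25.5% and 25.2% of single-alpha barcodes in kept cells.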

How the results depend on the processing

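Of 256 alternative values for 28 results, 243 kept within the main value's counting interval, or within 1.5 times a main count, and 13 did not; none reversed a value whose interval left out 1. No paired analysis was possible because each genotype had 1 library and replicate numbers could pair no samples. The 5' section share of dual-alpha chains in Cgas KO over WT ranged from 0.767 to 0.794 over 8 alternatives, that of single-alpha barcodes from 0.887 to 0.942 over 9, and pairs with both chains in the 5' section from 0.629 to 0.693 over 8. Without barcodes of at least 2 beta chains, the partner quotient was 14.9 in Cgas KO and 19.1 in WT, and the same values, 14.9 and 19.1, followed when 1 barcode per chain combination was also kept. The count of TRAJ segments between genotypes was 3 with all chains and 0 at 1.5-fold, against 6. The count of rearrangement genes in Cgas KO was 3 with at least 100 UMIs, against 5. In WT it was 1, and it became 3 with contigs of at least 2 UMIs, 0 with at least 100 UMIs, and 2 without barcodes of at least 2 beta chains, without barcodes shared by the libraries, with all chains, or with 1 barcode per combination and no barcodes of 2 beta chains. Apart from the settings that test fewer genes or raise the threshold, the cause was not tested. The number of chains limits the class results, with 219 to 318 Foxp3+ or Rag1+ single-alpha barcodes per library.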
